A study of Caenorhabditis elegans with 4 samples.

Results

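Broad binding regions of UNC-130 were described in first-stage (L1) larvae of Caenorhabditis elegans. They are the regions of 1000 bp or more in the deposited list, and were chosen by their measured width, counted with both end bases. The rule selected 201 of 2715 regions (7.40%), and the 2514 narrower regions of the same list serve as the comparison. All animals were of 1 strain, OP77, which carries the mutation unc-119(ed3) on chromosome III and the integrated transgene wgIs77. Through that transgene, introduced by bombardment, the worms make the fusion unc-130::TY1::EGFP::3xFLAG and regain unc-119(+), and the labelled genotype lists no mutation of unc-130 itself. The submitters describe the fusion as following the normal pattern of unc-130 in space and time. Fed hermaphrodites at 20 °C gave 2 ChIP libraries, captured with a goat antibody against GFP, and 2 input libraries. All 4 libraries share the strain, stage and feeding state. The deposited regions combine these libraries without values for any single one, so they show neither the depth behind a region nor its spread over replicates, and no difference given here has a replicate check.

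UNC-130 is a forkhead-domain transcription factor, a DNA-binding protein of the FoxD type. In worms it is known for restricting expression of unc-129, a TGF-β-family ligand that guides migrating cells and axons, in body wall muscle. It is also known for its part in a lineage that gives rise to chemosensory neurons. In chromatin immunoprecipitation, a single bound site gives a peak about as wide as the sheared fragments. A broad called region is a longer stretch that the caller reported as a single region of ChIP reads above the input. C. elegans autosomes are known to have gene-rich centres and arms that are richer in repeats. Positions are those of WormBase release WS180, and genes and base sequences at these positions were not used here.

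Broad regions were few but held a large share of the bound bases. Because the set was chosen by width, its larger widths and larger share of bases follow from the rule. They covered 349 kb, which was 26.1% of all covered bases, against 990.1 kb in the narrower regions. Their median width was 1429 bp, with 25th and 75th percentiles of 1152 and 1855 bp, against a median of 358 bp among the narrower regions. Widths in the narrower set ran from 1 to 997 bp, so it includes calls of a few bases. Widths fell off quickly above the threshold. There were 69 regions of 1000 to 1249 bp, 41 of 1250 to 1499 bp, 45 of 1500 to 1999 bp, 30 of 2000 to 2999 bp and 16 of 3000 bp or more. The threshold cut through a continuous range and no gap in width separated the sets. The 5 narrowest broad regions were 1001 bp (chromosome IV at 4445339, X at 4532008 and V at 15187182), 1005 bp (X at 11014280) and 1006 bp (IV at 6096932) wide, counted from the given starts. Just under the threshold lay regions of 997 bp (chromosome II at 160676), 993 bp (V at 10715241 and X at 2890787) and 991 bp (III at 13635200 and I at 1834930).

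The widest regions were spread over all 6 chromosomes. Chromosome X held the widest, of 9653 bp at 6736302 to 6745954 (q = 3.82e-39, the lowest q value of the list). A region of 831 bp lay 233 bp to its left, and another broad region, of 1614 bp, began 3047 bp beyond its right end. On chromosome II the widest region spanned 7795 bp at 10546519 to 10554313 (q = 1.39e-10). Chromosome I had its widest region at 7078952 to 7084135 (5184 bp, q = 7.41e-30), with a neighbour of 724 bp at a gap of 260 bp. These 3 regions all had a neighbour within 500 bp and at least 3 other regions within 10 kb. On chromosome V the widest, of 4647 bp, lay near the left end of the bound span at 723708 to 728354 (q = 8.67e-30) and had a neighbour 540 bp away.

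Other very wide regions stood alone. Chromosome IV had its widest region near the right end, at 17277085 to 17281618 (4534 bp, q = 3.28e-21), with no other region within 26.8 kb. The widest region of chromosome III was 3997 bp wide, also lay near the right end, at 13462732 to 13466728 (q = 8.13e-11), and had no other region within 39.1 kb. A region of 4337 bp on chromosome V, at 14685304 to 14689640 (q = 1.34e-09), was 24.2 kb from its nearest neighbour. A great width therefore occurred both inside groups of called regions and far from any other region.

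The remaining regions among the 15 widest measured between 3122 and 4256 bp. Chromosome I held those of 4256 bp at 9380113 (q = 1.22e-23) and 3759 bp at 7656633 (q = 1.25e-21), and chromosome III those of 3853 bp at 9051188 (q = 1.02e-16), 3249 bp at 4280263 (q = 1.20e-11) and 3122 bp at 12613295 (q = 2.32e-06). The region of 3649 bp on chromosome II began at 8741861 (q = 1.54e-09). Chromosome IV held 2 regions of this width with much higher q values, of 3353 bp at 14610397 (q = 3.91e-04) and of 3233 bp at 10933962 (q = 1.72e-04). A lower q value than that of the 3233 bp region was held by 903 regions.

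Because the authors' caller set both width and q value, the q values of broad regions are given as a description, with no test. A q value at or under 1e-05 was held by 94 broad regions (46.8%) and by 445 narrower regions (17.7%), against 19.9% of all regions. At or under 1e-10 the counts were 31 broad (15.4%) and 57 narrower regions (2.27%), against 3.24% of all. At or under 0.001 they were 147 broad (73.1%) and 1257 narrower regions (50%), against 51.7% of all. Of the 14 regions at or under 1e-20, 12 were broad. The median q value of broad regions was 2.19e-05, and that of narrower regions was 0.001.

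Some broad regions had q values close to the limit of the list. The least significant 25% of the list held 28 broad regions, 4.13% of the regions there, against 7.40% of the whole list. The 5 with the highest q values had widths of 1124 to 2431 bp. The least significant of all was on chromosome II at 8130813 to 8132033 (1221 bp, q = 0.00994), and the next was on chromosome V at 9095074 to 9097504 (2431 bp, q = 0.00963). The other 3 lay on chromosome III at 7334092 to 7335565 (1474 bp, q = 0.00892), X at 9636940 to 9638063 (1124 bp, q = 0.00873) and II at 8746408 to 8747613 (1206 bp, q = 0.00873). The last of these sat 898 bp from the 3649 bp region named above. By width class, the share with a q value at or under 1e-05 showed no step at the threshold. It was 27.0% of regions of 500 to 749 bp and 33.9% of those of 750 to 999 bp. Above the threshold it was 37.7% of regions of 1000 to 1249 bp, 41.5% of those of 1250 to 1499 bp, 51.1% of those of 1500 to 1999 bp, 50% of those of 2000 to 2999 bp and 81.2% of those of 3000 bp or more.

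At 1000 bp and more, the density of regions differed less between chromosomes than that of narrower regions did. Per Mb of bound span, which runs from a chromosome's first region to its last, there were 1.87 broad regions on chromosome I, 1.90 on IV, 2.01 on V, 2.04 on II, 2.11 on III and 2.19 on X. The highest of these densities was 1.17 times the lowest, and the exact Poisson interval of each (1.24 to 2.70 on chromosome I and 1.55 to 3.01 on X, for example) held all the others. With 28 to 42 broad regions per chromosome these intervals are wide, so they cannot show that the densities are equal. Narrower regions ran from 18.9 per Mb on chromosome V to 39.9 per Mb on chromosome I, a ratio of 2.12. On chromosome I, 28 of 627 regions were broad, 4.47% (95% exact binomial interval 2.99% to 6.39%), and on the other 5 chromosomes together 173 of 2088, 8.29% (7.14% to 9.55%). These intervals do not overlap, but they treat neighbouring regions as independent and cover counting error over regions only. On single chromosomes the share was 9.63% on V, 8.92% on IV, 8.21% on X, 7.75% on II and 6.92% on III, and the intervals of these 5 overlapped one another. No test of enrichment was run on these shares. The picture on chromosome I depended on the definition of a broad region. As reported, chromosome I held 13.9% of all broad and 23.8% of all narrower regions, with 15.1% of the span. At 1500 bp and more it held 6.59% of broad (2.46% to 13.8%) and 23.7% of narrower regions, and after merging gaps of 1000 bp or less it held 19.9% (15.6% to 24.8%) and 23.1%, where the interval includes the narrower share. The interval of the broad share lay below the 15.1% of the span at 1500 bp and above it after merging. The similar density of chromosome I was therefore not kept at these settings.

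**Figure D1:**
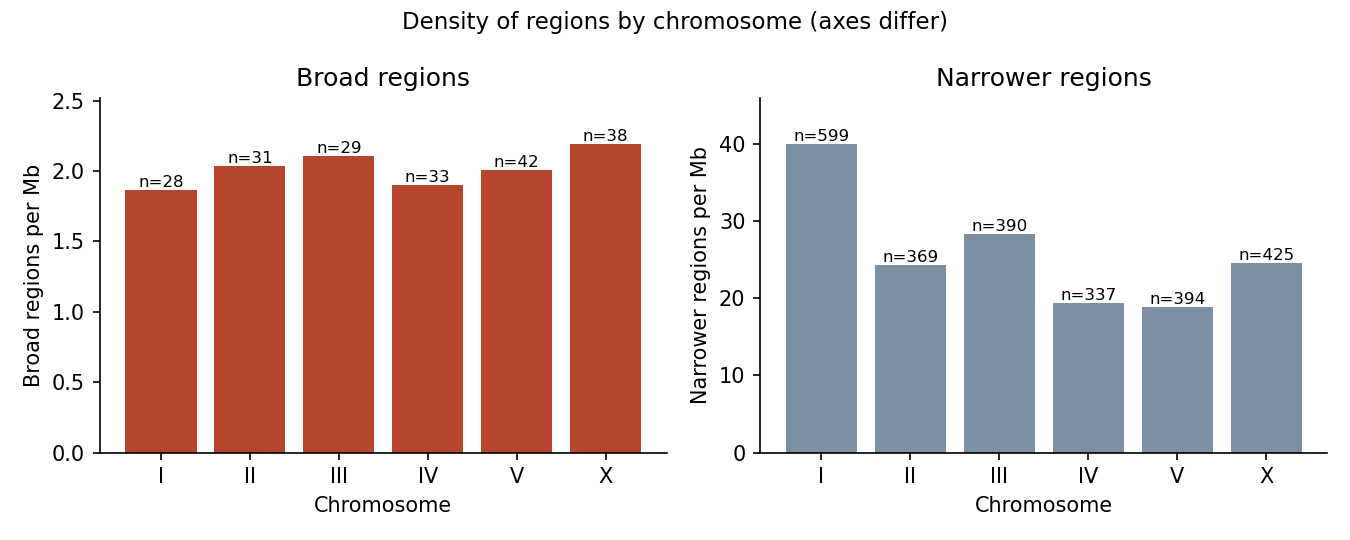
Regions per Mb of bound span on each chromosome, broad (left) and narrower (right), as bars with the number of regions above each; the axes differ in scale. Broad regions lie between 1.87 and 2.19 per Mb on all 6 chromosomes, and narrower regions run from 18.9 per Mb on V to 39.9 per Mb on I.

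Width and q values of broad regions are given by chromosome as a description. Each value rests on 28 to 42 broad regions and has no interval, and differences between chromosomes were not tested. The median width of broad regions was 1633 bp on chromosome V, 1568 bp on II, 1463 bp on III, 1416 bp on X, 1362 bp on IV and 1270 bp on I. Chromosome V held 13 of the 46 regions of 2000 bp or more, beside 20.9% of all broad regions and 21.0% of the span. Its broad regions made up 32.8% of its covered bases, against 16.9% on chromosome I. The broad regions of chromosome I, the fewest and the narrowest by median, had the lowest median q value, 2.88e-06. Those of chromosome IV had the highest, 1.64e-04.

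Along the chromosomes, broad regions lay more towards the centre than narrower ones did. The middle 33.3% of the span held 100 of 201 broad regions, 49.8% (95% exact binomial interval 42.6% to 56.9%), and 884 of 2514 narrower regions, 35.2% (33.3% to 37.1%), against 36.2% of all regions. The share was higher among broad than among narrower regions on each of the 6 chromosomes. It was 46.4% of broad and 36.2% of narrower regions on chromosome I, 54.8% and 38.5% on II, 51.7% and 35.6% on III, 42.4% and 28.8% on IV, 52.4% and 40.1% on V, and 50% and 30.8% on X. The difference ran from 10.2 percentage points on chromosome I to 19.2 on X. On any 1 chromosome the intervals of the broad and the narrower share overlapped, since each chromosome held only 28 to 42 broad regions.

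**Figure D2:**
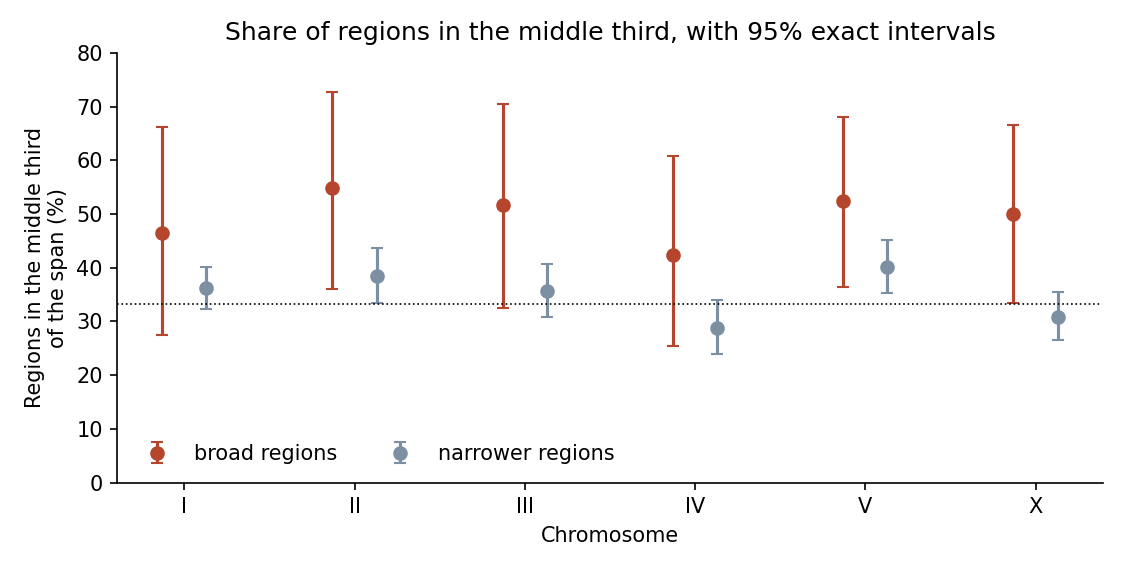
Percentage of the broad and of the narrower regions of each chromosome whose midpoint lies in the middle 33.3% of the bound span (dotted line: 33.3%). Points are shares and bars are 95% exact binomial intervals over regions; the broad share lies above the narrower share on all 6 chromosomes, and the bars overlap on each.

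Over all chromosomes together, both outer parts held a smaller share of broad than of narrower regions. The left 33.3% of the span held 23.4% of broad and 32.0% of narrower regions, and the right 33.3% held 26.9% of broad and 32.8% of narrower regions. On chromosomes II and IV this held for the left part only. The right part held 41.9% of broad and 40.4% of narrower regions on II, and 27.3% and 27.0% on IV. In steps of 10% of the span, broad regions were most frequent between 60% and 70%, where 36 of 271 regions were broad (13.3%), and least frequent in the first 10%, where 8 of 204 were (3.92%). The centre was uneven too. Between 30% and 40% of the span lay 7.46% of broad and 10.5% of narrower regions, and between 60% and 70% lay 17.9% and 9.35%. The central share was lower in regions just under the threshold. Of 171 regions of 750 to 999 bp, 36.3% (29.1% to 43.9%) lay in the central part, and of 489 regions of 500 to 749 bp, 31.7% (27.6% to 36.03%). Among regions of 1000 to 1249 bp the share was 49.3% (37.0% to 61.6%), which overlaps the interval of those of 750 to 999 bp. It did not climb steadily with width, at 41.5% (26.3% to 57.9%) for 1250 to 1499 bp, 44.4% (29.6% to 60.0%) for 1500 to 1999 bp, 70.0% (50.6% to 85.3%) for 2000 to 2999 bp and 50% (24.7% to 75.3%) for 3000 bp or more.

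The central share was higher among broad regions in each 25% of the list. In the most significant 25% of the list, 44.0% of broad and 35.4% of narrower regions lay in the central part. In the following 25% the shares were 47.4% of broad and 33.4% of narrower regions, and in the next they were 53.8% and 37.2%. In the least significant 25%, 20 of 28 broad regions lay there (71.4%, 51.3% to 86.8%), against 34.6% of narrower regions. Only in this last part did the intervals of the broad and the narrower share not overlap.

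**Figure D3:**
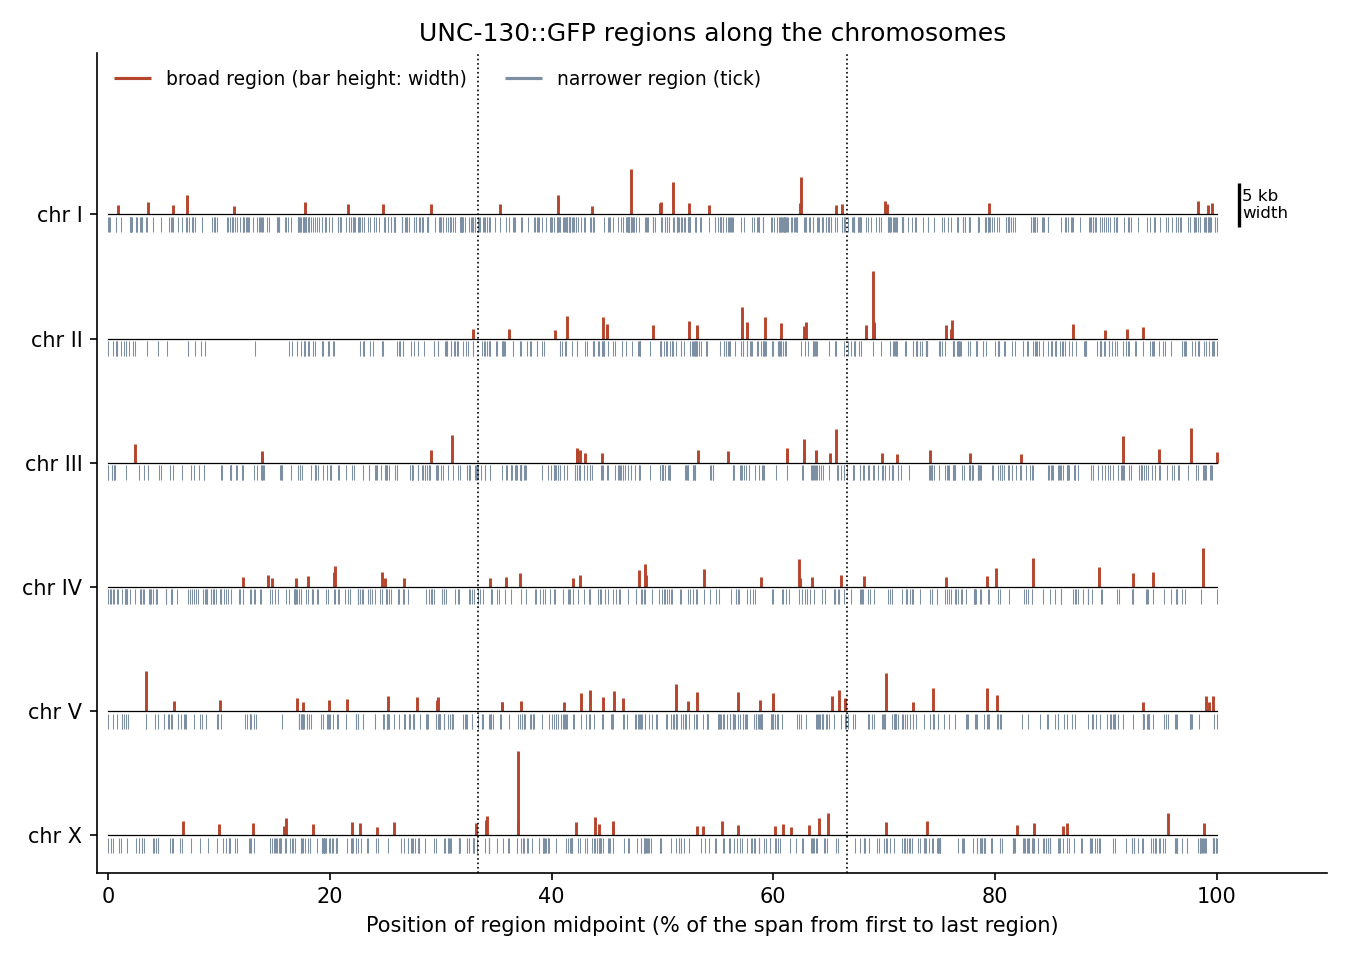
Regions along each chromosome, by position of the midpoint as a percentage of the bound span. Red bars above the line are broad regions with height in proportion to width (scale bar, 5 kb), and grey ticks below are narrower regions. Dotted lines bound the middle 33.3%, which holds 100 of the 201 broad regions. The left part of chromosome II has 78 ticks but only 1 bar, at 32.9% of the span.

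Long stretches held narrower regions but no broad one. The longest was the left end of the bound span of chromosome II, from 43279 to 5049252 (5.01 Mb), with 76 narrower regions and no broad one. These stretches were picked for their lack of broad regions, so their counts of 0 are a description. Other stretches without a broad region were 2.82 Mb on chromosome I (11931262 to 14755921, 84 narrower regions), 2.74 Mb on V (16780290 to 19521054, 32), 2.12 Mb on IV (102937 to 2220140, 65), 2.09 Mb on III (1925760 to 4018670, 58) and 1.59 Mb on X (15341179 to 16929345, 32). The stretch on X ended at the region with the second-lowest q value of the list, which is 2541 bp wide.

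In windows of 1 Mb, counted from position 1 and with incomplete end windows kept, 83 of 103 windows held a broad region and the median was 2. Windows with no broad region held a median of 19 narrower regions, those with 1 or 2 broad regions 25.5, and those with 3 or more 24. Across the 103 windows the number of broad and the number of narrower regions were weakly related (Pearson's r 0.21, Spearman's rho 0.17), given as a description because neighbouring windows are alike and share chromosomes. The richest window was 8 to 9 Mb of chromosome III, with 7 broad and 20 narrower regions. It was followed by 8 to 9 Mb and 10 to 11 Mb of chromosome II, with 6 broad regions each beside 34 and 22 narrower ones.

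Broad regions had close neighbours more often than narrower ones as a whole. The gap to the nearest other region of any width, from edge to edge, had a median of 4.42 kb (95% interval 2.63 to 6.46 kb) for broad and 7.88 kb (7.22 to 8.72 kb) for narrower regions. The order of these medians was not the same everywhere. On X the median was 8.325 kb for broad and 8.034 kb for narrower regions. In the least significant 25% of the list it was 10.3 kb for broad and 8.42 kb for narrower regions. Another region lay within 1 kb of 61 broad regions, 30.3% (24.1% to 37.2%), and of 339 narrower regions, 13.5% (12.2% to 14.9%), against 14.7% of all regions. Within 5 kb the shares were 52.7% of broad (45.6% to 59.8%) and 39.5% of narrower regions (37.6% to 41.5%), against 40.5% of all. By width class, the share with a neighbour within 5 kb was 47.6% at 500 to 749 bp, 50.9% (43.1% to 58.6%) at 750 to 999 bp, 47.8% (35.6% to 60.2%) at 1000 to 1249 bp and 48.8% at 1250 to 1499 bp. It was 55.6% at 1500 to 1999 bp, 56.7% at 2000 to 2999 bp and 68.8% (41.3% to 89.0%) at 3000 bp or more, so no step stood at the threshold. Both sides were occupied within 5 kb for 24 broad (11.9%) and 176 narrower regions (7.0%). Since the list holds no gap under 200 bp, closer neighbours could not be seen, and how the authors' caller joined or divided neighbouring calls is not stated in the labels or headers. Its part in these shares was not tested.

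**Figure D4:**
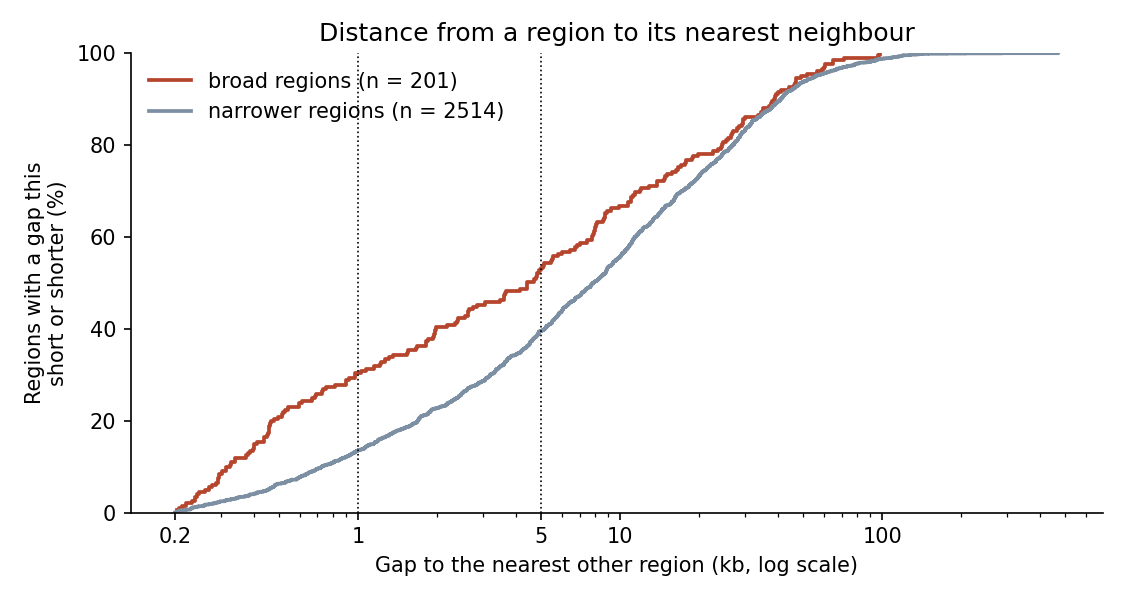
Cumulative percentage of broad and of narrower regions whose gap to the nearest other region, edge to edge, is at or below the distance on the x axis (kb, log scale); dotted lines mark 1 and 5 kb. At 1 kb the curves stand at 30.3% of broad and 13.5% of narrower regions, and they come together at the longest gaps.

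Within 1 kb lay much of the difference. Of the regions with no neighbour within 1 kb, 45 of 140 broad regions (32.1%, 24.5% to 40.6%) and 655 of 2175 narrower regions (30.1%, 28.2% to 32.1%) had one between 1 and 5 kb. With all gaps of 1000 bp or less merged first, which makes 307 regions broad, a neighbour within 5 kb was still held by 40.4% (34.9% to 46.1%) of broad and 30.2% of narrower regions. Within 1 kb the broad share was higher in each 25% of the list by significance. From the most to the least significant, it was 33.0% of broad and 16.1% of narrower regions, then 26.3% and 13.9%, then 34.6% and 13.0%, and last 21.4% and 11.2%. The number of broad regions behind these shares was 109, 38, 26 and 28, and the intervals of broad and narrower regions overlapped in the second and the last part. In the central part of the span, 36.0% of broad and 14.9% of narrower regions had a neighbour within 1 kb, and in the outer parts 24.8% of broad and 12.7% of narrower regions. At 5 kb the share was higher among broad regions on all 6 chromosomes, but by little on X (39.5% of broad and 36.7% of narrower regions) and IV (33.3% and 29.1%). The contrast was widest on chromosome II, with 67.7% of broad and 40.4% of narrower regions.

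The regions next to broad ones were wider than those next to narrower ones. The nearest other region was broad for 34 of 201 broad regions, 16.9% (12.0% to 22.8%), and for 191 of 2514 narrower regions, 7.60% (6.59% to 8.70%), against 8.29% of all regions. The contrast was not kept at higher thresholds. At 1500 bp the shares were 6.59% of broad (2.46% to 13.8%) and 3.89% of narrower regions. At 2000 bp they were 0 of 46 broad (0% to 7.71%) and 2.02% of narrower regions. Both intervals include the narrower share, so neither setting shows a direction. The result also differed between the parts of the list by significance used above. In the most significant part the shares were 21.1% of broad and 8.42% of narrower regions. In the following part they were 13.2% and 6.08%. In the next they were 3.85% of broad against 7.96% of narrower regions, but its 26 broad regions are too few to show a direction. In the least significant part the shares were 17.9% and 8%. The median width of the nearest region was 508 bp beside broad and 384 bp beside narrower regions. Narrower regions could be sorted by the company they kept. The 64 with a broad region within 2 kb had a median width of 528 bp, the 507 with only narrower regions within 2 kb one of 406 bp, and the 1943 with no region within 2 kb one of 344 bp. A q value at or under 1e-05 was held by 26.6% (16.3% to 39.1%), 19.9% (16.5% to 23.7%) and 16.8% (15.2% to 18.6%) of these sets in turn, and the intervals of the first and the last overlapped.

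Broad regions that had another broad region nearby usually had it very close. From one broad region to the nearest other broad one the median gap was 157 kb. Even so, 42 broad regions (20.9%) had another broad one within 5 kb and 29 (14.4%) within 2 kb. In contrast, only 2 more had their nearest broad neighbour between 5 and 10 kb away, and 18 between 10 and 50 kb. For comparison, 64 of 2514 narrower regions had a broad one within 2 kb. Pairs of broad regions are counted from both sides, and the 42 regions lie in only 19 groups with gaps of 5 kb or less. The 5 closest pairs had gaps of 238 to 339 bp with no region between. Of these pairs, 2 lay on chromosome III, with regions of 1332 and 1464 bp from 8799710 to 8802743 and of 1114 and 1711 bp from 8444141 to 8447259. Another 2 lay on chromosome V, of 1615 and 3119 bp from 10716441 to 10721478 and of 1061 and 1053 bp from 7434874 to 7437300. The fifth, on chromosome II, joined regions of 1568 and 1037 bp from 10445001 to 10447944. In that pair the regions differed widely in significance, with q = 6.35e-04 for the wider and q = 6.60e-13 for the narrower one.

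When regions with gaps of 5 kb or less were taken as 1 group, the list formed 2065 groups, of which 178 held a broad region. More than 1 region was found in 83 of these 178 groups (46.6%) and in 367 of the 1887 groups without a broad region (19.4%). A group with a broad region is found through that region, so its higher count repeats the shorter gaps above. Groups held 1 broad region in 159 cases, 2 in 17 and 4 in 2. The group with most regions of all held 8 and none of them was broad.

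**Figure D5:**
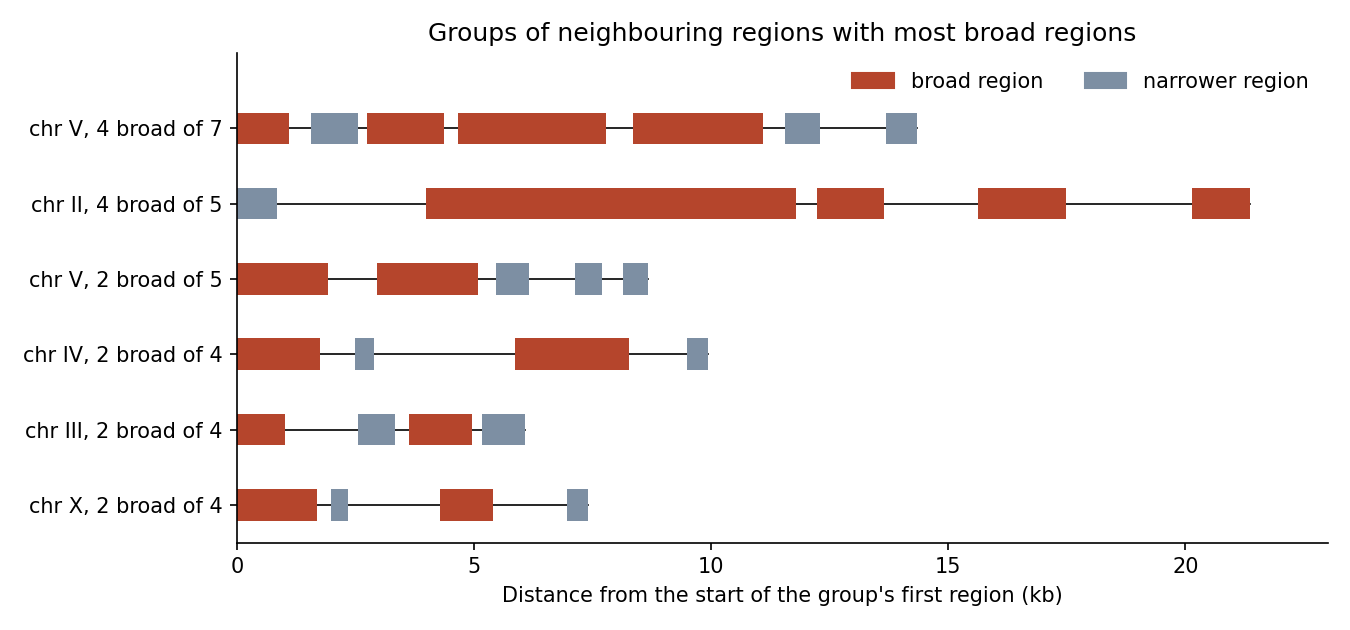
Groups of neighbouring regions (gaps of 5 kb or less), drawn to scale in kb from the start of the first region. Red blocks are broad and grey blocks narrower regions. Of the 6 groups drawn, 2 hold 4 broad regions each. The rest come from 17 groups tied at 2 broad regions, taken by number of regions of any width, then by lowest q value. The top group on chromosome V holds 4 broad regions in 14.3 kb and the group on chromosome II holds 4 in 21.4 kb.

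Only 2 groups held 4 broad regions, and they supplied 4 of the 5 broad regions at 10 to 11 Mb of chromosome V and 4 of the 6 at 10 to 11 Mb of II. On chromosome V, the group from 10713695 to 10728034 held 7 regions, and called regions took up 76.5% of its 14.3 kb. Its broad regions were 1085, 1615, 3119 and 2742 bp wide. None had a q value under 1e-05, with 0.00179, 6.00e-04, 1.85e-04 and 1.34e-05, and the lowest q value of the group, 8.16e-06, belonged to a region of 993 bp just under the threshold. On chromosome II, the group from 10542531 to 10563899 held the 7795 bp region and 3 more broad ones, of 1427 bp (q = 8.03e-09), 1855 bp (q = 1.62e-05) and 1229 bp (q = 2.17e-10), in 21.4 kb. Another group, on chromosome V from 12548663 to 12557335, held 2 broad and 3 narrower regions, all with q values at or under 5.86e-07. Its broad regions, of 1915 and 2135 bp, had q values of 2.90e-22 and 2.83e-20.

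At the other extreme, 67 broad regions (33.3%) had no other region within 10 kb, against 1116 narrower regions (44.4%). The most isolated broad region lay on chromosome IV at 10341620 to 10342739 (1120 bp, q = 5.55e-04), 98.0 kb from the nearest call. Next came one on X at 4808851 to 4810383 (1533 bp, q = 3.83e-04), at 96.5 kb, and one on II at 6176074 to 6177110 (1037 bp, q = 1.51e-06), at 71.3 kb. On the right end of chromosome V, regions of 1725 bp at 20707071 (q = 4.90e-07) and 1053 bp at 20773554 (q = 5.31e-05) were each other's nearest neighbours, 64.8 kb apart.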

How the data were processed

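The labels name 2 ChIP and 2 input libraries, with replicates 1 and 2 of each, made from chromatin crosslinked with 2% formaldehyde. The authors deposited 1 combined list of regions with a q value each, called with PeakSeq on WormBase WS180 per the file headers and source column. The aligner, the scaling to input and the joining distance are not stated there or in the labels. Sequencing depth is unknown, so intervals (95%, exact Clopper-Pearson for shares, order statistics for medians) cover counting error over regions only, and neighbouring regions are not independent.

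From the list, widths, midpoints, gaps from edge to edge, groups (gaps of 5 kb or less) and windows were computed with Python 3.11.15, numpy 2.4.6, pandas 2.3.3 and scipy 1.17.1, and drawn with matplotlib 3.10.9. A chromosome's span runs from its first to its last region. No significance test was run, since width defined the set and regions are not replicates. Order by significance, and each 25% of it, follows the order of the list, which is close to but not the order of q: q drops at 1049 places, a region's place differs from its rank by q by at most 35, and 4 regions, none of them broad, would fall in another 25%. Poisson intervals of densities are exact. The measures were checked on 20 simulated lists of 2700 regions, and the known gaps, positions and groups were recovered in all 20. Members and measures were chosen with earlier results of these data known. Regions were named by fixed rules: the 15 widest, the widest per chromosome, the 5 least significant, 5 on each side of the threshold, the 5 closest broad pairs, the 5 most isolated, and the 3 groups and windows richest in broad regions. Groups tied on broad regions were ordered by their number of regions of any width. The 1614 bp neighbour, the region of the second-lowest q value, the longest stretches without a broad region and the steps of 10% along the span were picked once the results were known. Genes and sequences are not analysed here, since the reference table is of another assembly, WBcel235.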

Additional observations from a re-analysis of the deposited data

How the results depend on the processing

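Alternatives changed the width that counts as broad, the q value, joining of neighbours, the regions left out, and the way position and gaps were counted. With 750, 1500 and 2000 bp in place of 1000 bp, 372, 91 and 46 regions were broad, with median widths of 1042 (750 bp), 2005 and 2534 bp. Of these, 56.0% (1500 bp) and 60.9% (2000 bp) had a q value at or under 1e-05. Merging gaps of 1000 bp or less gave 307 broad regions with a median of 1632 bp, of which 117 were made of narrower regions alone. The share of broad regions on chromosome I, 13.9% against 23.8% of narrower ones, was 6.59% at 1500 bp and 19.9% (against 23.1%) after merging. The central share stayed higher among broad than narrower regions in all 17 alternatives, including leaving out each chromosome in turn, and ran from 43.5% at 750 bp to 71.4% in the least significant 25% of the list. It was 63.04% at 2000 bp, and 63.7% of broad against 53.7% of narrower regions for the middle 50% of the span. Without regions of 50 bp or less it was 49.8% of broad against 35.7% of narrower regions. The share with a neighbour within 5 kb stayed higher in all 19, at 60.9% (2000 bp), 39.5% (q at or under 0.001), 40.4% (merged, against 30.2% of narrower regions), and 44.7% and 39.3% in the second and the least significant 25% of the list, where narrower regions had 40.7% and 36.5%. The share whose nearest region was broad was 23.9% at 750 bp and 6.59% at 1500 bp. It was lower at 2000 bp, with 0 of 46 broad (exact interval 0% to 7.71%) against 2.02% of narrower regions. The interval includes the narrower share. Outside these alternatives, the share was also lower among broad regions in the next-to-last 25% of the list by significance. There it was 3.85% of 26 broad regions against 7.96% of narrower ones. Groups with 2 or more broad regions numbered 39, 7 and 1 at 750, 1500 and 2000 bp against 19, and windows with a broad region 55 and 36 at 1500 and 2000 bp against 83. Some alternatives were added after the data were examined. These were the 25% parts of the list for position and the split by centre and outer parts for neighbours. The exclusion of single chromosomes II to X was added for both. No paired analysis was possible because values are given for the combined libraries alone, which also kept replicates from being left out. With unknown depth, regions missed for want of reads cannot be counted.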
